A study of Mus musculus with 16 samples.

Results

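The genes described here were the histone genes named Hist1h to Hist4h, the clustered genes from which dividing cells make most of their histone protein. They were taken from the count tables as the genes annotated as protein coding whose symbol begins with Hist1h, Hist2h, Hist3h or Hist4h. This rule found 67 genes in each of the 3 tables, out of 52636 genes for crypts, 54532 for villin organoids and 52636 for CAG organoids. Of the 67 genes, 6 encoded the linker histone H1, 18 encoded H2A, 18 encoded H2B, 12 encoded H3 and 13 encoded H4. On chromosome 13 lay 54 of them, with 10 on chromosome 3, 2 on chromosome 11 and 1 on chromosome 6.

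RNA-seq was performed on small-intestinal material of C57BL/6 mice in 3 experiments, 16 libraries in all, to ask which transcripts change when Cul4b, the scaffold of a cullin-RING ubiquitin ligase, is deleted. Freshly isolated crypts were compared between 4 WT (Cul4b fn/Y) and 4 KOIEC (pVillin-Cre; Cul4b fn/Y) samples, in which Cre is driven by a promoter active in the intestinal epithelium. Villin organoids, grown from such crypts in Matrigel, comprised 2 WT (Cul4b fn/Y) and 2 KOIEC samples of the same genotype. CAG organoids comprised 2 WT and 2 KOCAG (CAG-CreERT2; Cul4b fn/Y) samples, in which a Cre active in all cell types was switched on with 4-hydroxytamoxifen. Whether the WT samples of the CAG experiment carried CreERT2 or received 4-hydroxytamoxifen is not stated in the sources used here, so the deletion and these 2 factors cannot be told apart there. The labels give no age, the study gives an age range for most of its experiments without tying it to these samples, and the labels do not state which individual animal gave which sample. The study describes 2 to 4 biological replicates per group.

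Library totals ran from 9311734 to 13479974 counts in crypts, from 15006730 to 16881395 in villin organoids and from 7348191 to 10462275 in CAG organoids. Levels are given as CPM, a gene's counts scaled to the size of its library, scaled by the trimmed mean of M-values (TMM), and sums over gene classes such as rRNA, mitochondrial rRNA and miRNA as CPM of the library total, without TMM. In CPM of the library total, 3 counts corresponded to between 0.178 and 0.408. Cul4b itself followed the labels in every library. In crypts it measured 31.7, 33.2, 38.3 and 32.3 CPM in WT and 1.69, 0.993, 0.848 and 2.21 CPM in KOIEC. In villin organoids it measured 83.2 and 73.2 CPM in WT against 1.69 and 1.76 CPM in KOIEC. In CAG organoids it measured 72.9 and 70.1 CPM in WT against 3.34 and 5.19 CPM in KOCAG. No KO library came near a WT library, and the log2 fold changes were -4.56, -5.50 and -4.02 (adjusted p = 0.000169, 0.0311 and 1.93e-06, edgeR quasi-likelihood test, Benjamini-Hochberg).

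Histones package DNA into nucleosomes, whose core holds H2A, H2B, H3 and H4 and whose entry and exit point is bound by H1. A cell that copies its DNA needs a matching supply of new histones, so these clustered genes are transcribed mainly in S phase. Their mRNAs classically end in a conserved stem-loop, bound by the stem-loop binding protein SLBP, in place of a poly(A) tail. They are therefore poorly captured when libraries are made by selecting poly(A), although several histone genes can also give longer, polyadenylated transcripts, mostly in differentiated cells. The RNA selection step used for these libraries is not stated in the sources used here, and the level of these genes is read with that limit.

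The stem-loop was looked for in the GENCODE M21 transcripts (GRCm38) on the transcribed strand, as 16 letters that read GG, any 2 bases, CTT, any base, T, any base, AG, any 2 bases and CC. It was present in 46 of the 67 genes (68.7%) and in 118 of 21884 other protein-coding genes (0.539%). The annotated transcript ended within 100 bases after these letters in 23 genes, continued beyond 100 bases in 23 and lacked them in 21. A match is a description of the annotated transcript and does not show which end was used in the cells. The sequences below are those of genes named in the results and show how alike the ends are, with the 16 searched letters in capitals. The first 2 genes, Hist1h2ao and Hist1h2ap, end shortly after the letters, and the next 2, Hist1h1c and Hist1h4i, continue beyond them.
Hist1h2ao (chr13:21810891-21810920, plus strand): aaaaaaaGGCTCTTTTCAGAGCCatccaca
Hist1h2ap (chr13:21833026-21833051, minus strand): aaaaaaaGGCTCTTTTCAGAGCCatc
Hist1h1c (chr13:23739505-23739534, plus strand): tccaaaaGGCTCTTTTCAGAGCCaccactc
Hist1h4i (chr13:22040959-22040988, minus strand): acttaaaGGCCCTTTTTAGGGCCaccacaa
Hist1h3c (chr13:23745040-23745069, minus strand): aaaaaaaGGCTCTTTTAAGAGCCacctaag
Hist1h2bj (chr13:22043631-22043660, plus strand): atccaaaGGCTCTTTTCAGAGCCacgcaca

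The annotated transcript ran on for 31 bases after the letters in Hist1h2ao, 3 in Hist1h2ap, 840 in Hist1h1c, 330 in Hist1h4i, 74 in Hist1h3c and 23 in Hist1h2bj. The same 16 letters as in Hist1h2ao, Hist1h2ap, Hist1h1c and Hist1h2bj occurred in 26 of the 67 genes. Among the genes without a match were Hist1h2bc, Hist2h2be and Hist1h4k, which are among the more abundant ones. The genes are also alike within their coding parts. In 34 of them more than 50% of the 50-base stretches of the transcript occurred in another gene as well, and in 12 more than 90% did, so that counts of single genes within these groups are uncertain. For Hist1h2ao and Hist1h2ap these shares were 93.5% and 93.1%. How reads that fit several genes were treated, and whether strand was used, is not stated, and the miRNA genes annotated on the opposite strand of H2A genes, 15 in the crypt and CAG tables and 17 in the villin table, had 0 counts there.

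The label of replication-dependent genes did not hold for every gene under the rule. Hist1h1t, Hist1h2aa and Hist1h2ba, known as the testis forms of H1, H2A and H2B, fall under the naming rule but had 13, 0 and 1 counts over all 16 libraries. No count was recorded in any library for 7 genes, namely Hist1h2aa, Hist1h4b, Hist2h2aa1, Hist2h2aa2, Hist2h2bb, Hist2h3b and Hist2h3c1. The genes without a count numbered 7 in crypts, 9 in villin organoids and 12 in CAG organoids.

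A few genes held most of the histone counts. The 4 most abundant made up 78.0% of the CPM of the 67 genes summed over all crypt libraries, where they were Hist1h2ao, Hist1h2bc, Hist1h1c and Hist1h2ap. This order did not hold in replicate 4, where Hist1h2ao stood at 5.55 CPM in WT and 3.22 CPM in KOIEC. It was below Hist1h2bc, Hist1h1c, Hist2h2be and Hist1h4i in both libraries. In villin and CAG organoids the leading 4 were Hist1h1c, Hist1h2bc, Hist2h2be and Hist1h4i, with 81.4% and 76.1%. Per kilobase of transcript, so that genes can be compared, the mean WT level in crypts was 295 CPM per kb for Hist1h2ao, 45.0 for Hist1h2bc, 33.8 for Hist1h2ap, 15 for Hist1h1c, 11.5 for Hist1h4i, 4.36 for Hist1h4k and 3.76 for Hist2h2be. In villin organoids Hist1h2bc led with 26.7 CPM per kb, followed by Hist1h1c with 19.8 and Hist1h4i with 9.11, while Hist1h2ao stood at 3.43. In CAG organoids the same 3 genes led in that order with 11.8, 9.98 and 7.18 CPM per kb, and Hist1h2ao stood at 3.29. The typical gene was far lower. In crypts the median WT level was 1.51 CPM per kb for the 23 genes ending soon after the stem-loop letters, 1.02 for the 23 that continue and 0.884 for the 21 without the letters. In villin organoids these medians were 0.181, 0.298 and 0.217 CPM per kb, and in CAG organoids 0.227, 0.304 and 0.216. The order of the classes thus differed between the experiments, which were separate sets of libraries, so this is given without a test.

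**Figure D1:**
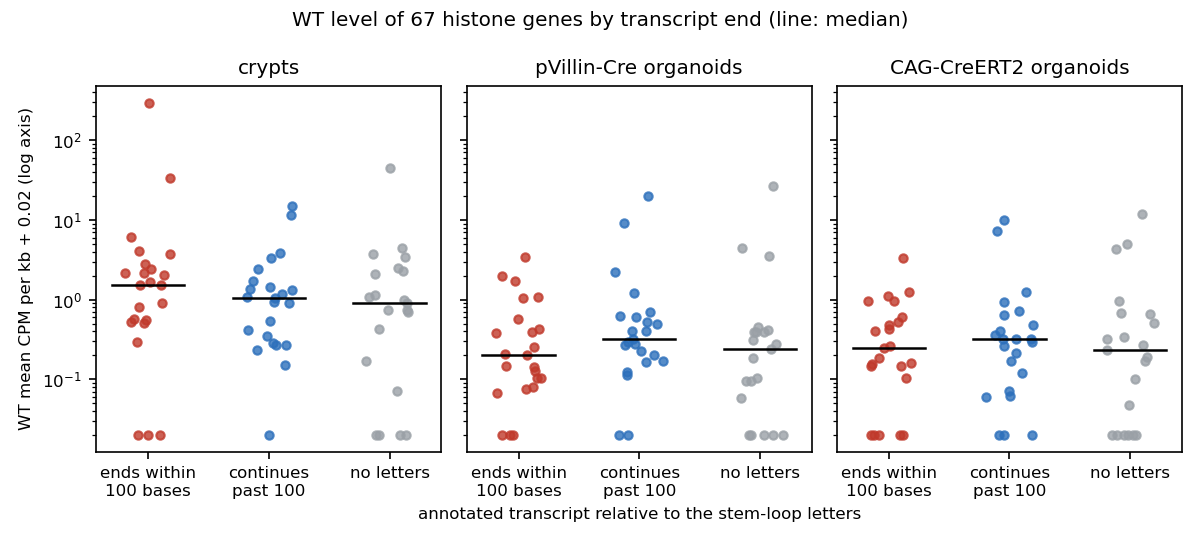
Mean WT level of each histone gene in CPM per kilobase plus 0.02 on a log axis, in crypts, villin organoids and CAG organoids, grouped by whether the annotated transcript ends within 100 bases after the stem-loop letters, continues beyond them or lacks them, with lines at the medians. Hist1h2ao stands far above its class in crypts at 295 CPM per kb, while the class medians lie between 0.181 and 1.51.

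Some crypt libraries stood apart before genotype was considered. Replicate 4 of WT and replicate 4 of KOIEC had 4 counts each of Rn7sk, an abundant RNA that is not polyadenylated, where the other 6 crypt libraries had 49 to 135. They also held 356 and 518 CPM of the library total in rRNA-annotated genes, against 6.82 to 13.6 CPM in the others, and 2262 and 2142 counts of Gm23935, a gene annotated as miRNA that had 2 to 21 counts in the others. Mitochondrial rRNA divided the crypt libraries differently, at 2840 and 2873 CPM in WT replicates 2 and 3, 834 CPM in WT replicate 4, 1078 CPM in KOIEC replicate 4 and between 18.9 and 25.2 CPM in the remaining 4.

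The most abundant histone gene of the crypts also set replicate 4 apart, and did not follow the division by mitochondrial rRNA. Hist1h2ao, an H2A gene, measured 108, 221, 233 and 5.55 CPM in WT and 239, 145, 71.9 and 3.22 CPM in KOIEC. Both libraries of replicate 4 were far below the other 3 in both genotypes, and the genotypes overlapped throughout the range. Hist1h2ap, its near-identical partner, measured 19.3, 30.4, 15.3 and 0.0804 CPM in WT and 22.6, 14.8, 3.92 and 0 CPM in KOIEC, with the same 2 libraries lowest. The pair together took 43.5, 65.3, 61.1 and 3.89% of the histone counts in WT crypts and 64.2, 57.5, 31.7 and 2.18% in KOIEC crypts. In the 8 organoid libraries it took 0.410 to 3.52%. The villin organoids resembled replicate 4 in rRNA-annotated genes, with 533 to 1007 CPM, and in miRNA-annotated genes, with 512 to 731 CPM where replicate 4 had 219 and 235 and the other crypts 43.5 to 53.7. The CAG organoids did not, with 3.54 to 5.79 and 48.9 to 58.5 CPM, although the pair was low there as well.

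In both libraries of replicate 4, 4 of the 27 histone genes tested in crypts lay below all of replicates 1 to 3, which is 14.8%, against 7.39% of all genes tested. These were Hist1h2ao, Hist1h2ap, Hist1h2ac and Hist1h2bb, singled out after their values were seen. The transcripts of Hist1h2ao, Hist1h2ap and the H2B gene Hist1h2bb end soon after the stem-loop letters, and that of the H2A gene Hist1h2ac continues and overlaps an rRNA-annotated gene on its own strand. The mean of replicate 4 minus that of the others was -5.14 for Hist1h2ao and -6.15 for Hist1h2ap on the log2 scale, while its median over the 27 genes was -0.13. Hist1h2ap had 1 and 0 counts in replicate 4, so its value depends on the prior count of 2 and is not an exact difference. The part of library preparation in these differences was not tested.

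**Figure D2:**
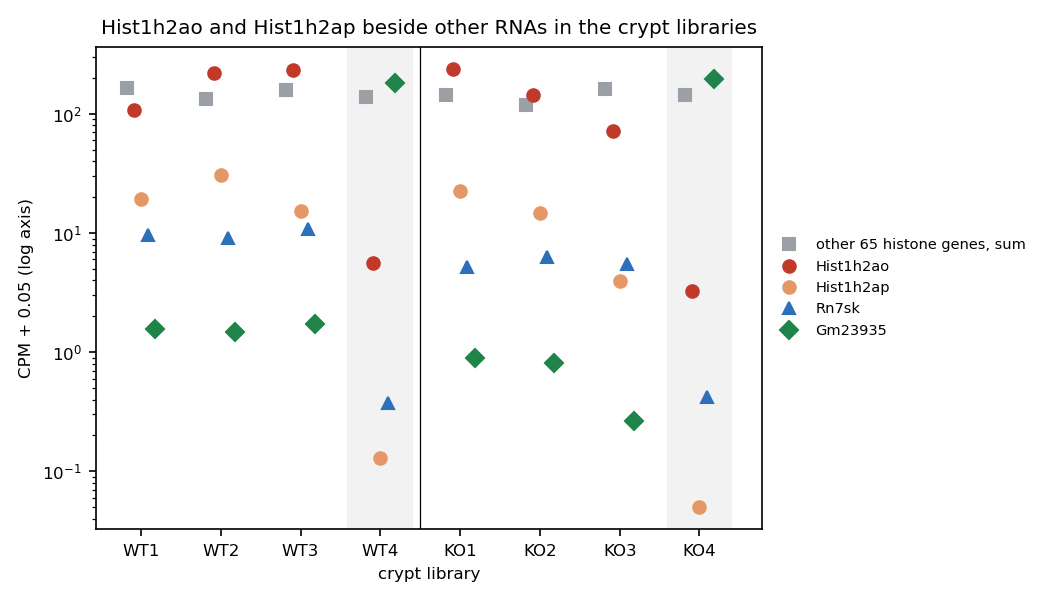
Levels in each of the 8 crypt libraries, in CPM plus 0.05 on a log axis, of Hist1h2ao, Hist1h2ap and the sum of the other 65 histone genes beside Rn7sk and Gm23935, with replicate 4 shaded. Hist1h2ao falls from between 71.9 and 239 in replicates 1 to 3 to 5.55 and 3.22 in replicate 4.

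Summed over all 67 genes, histone transcripts did not separate the genotypes in crypts. The sums were 293, 385, 405 and 145 CPM in WT (mean 307 ± 119, SD, n = 4) and 407, 277, 239 and 148 CPM in KOIEC (268 ± 107, n = 4). Without Hist1h2ao and Hist1h2ap they were 166, 133, 157 and 139 CPM in WT against 146, 118, 163 and 145 CPM in KOIEC. The lowest and highest values of the groups overlapped either way, and the ratio of means moved from 0.873 to 0.960. The 63 genes other than the Hist1h2ao pair, Hist1h1c and Hist1h2bc, a set made after the most abundant genes were known, summed to 79.2, 73.8, 82.0 and 58.7 CPM in WT against 66.8, 47.1, 47.2 and 50.2 CPM in KOIEC. Only KOIEC replicate 1 and WT replicate 4 made these groups overlap, and the ratio of means was 0.719. The set leaves out Hist1h1c and Hist1h2bc, whose joint sum had a ratio of means of 1.19. A lower sum of the remaining genes in KOIEC was therefore in part a condition of the choice, and no conclusion is drawn from it. In these bulk samples fewer cells in S phase and less histone RNA per cell cannot be told apart.

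In villin organoids the sums were 94.9 and 104 CPM in WT and 78.3 and 115 CPM in KOIEC, so the WT values lay between the KOIEC values. The same 63 genes summed to 34.7 and 37.2 CPM in WT and 29.9 and 30.1 CPM in KOIEC, lower in KOIEC without overlap, with a ratio of means of 0.836. Of single genes tested, 19.4% were lower in KOIEC without overlap. Much of the difference lay in Hist2h2be, at 10.8 and 12.2 CPM in WT and 7.77 and 9.79 CPM in KOIEC. Hist1h4i also took part, at 6.28 and 6.97 CPM in WT and 7.11 and 2.77 CPM in KOIEC, through KOIEC replicate 2 alone. In CAG organoids the sums of all histone genes were 67.3 and 59.0 CPM in WT and 87.9 and 74.9 CPM in KOCAG. Both KOCAG libraries were above both WT libraries, with a ratio of means of 1.29. This rested on Hist1h1c and Hist1h2bc, whose joint mean was 29.2 CPM in WT and 53.8 CPM in KOCAG. The same 63 genes summed to 34.9 and 29.7 CPM in WT and 24.7 and 27.9 CPM in KOCAG. This was without overlap in the opposite direction, with a ratio of means of 0.815. The set leaves out Hist1h1c and Hist1h2bc, which rose there, so its direction was in part a condition of the choice. Of single genes tested, 34.2% were lower in KOCAG without overlap. The fall of the 63 genes rested on Hist2h2be, whose mean was 11.1 CPM in WT and 5.27 CPM in KOCAG. The means of all 63 genes together were 32.3 and 26.3 CPM. With 2 libraries a group an exact permutation test cannot give a p below 0.333, so no permutation test is given for these sums.

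**Figure D3:**
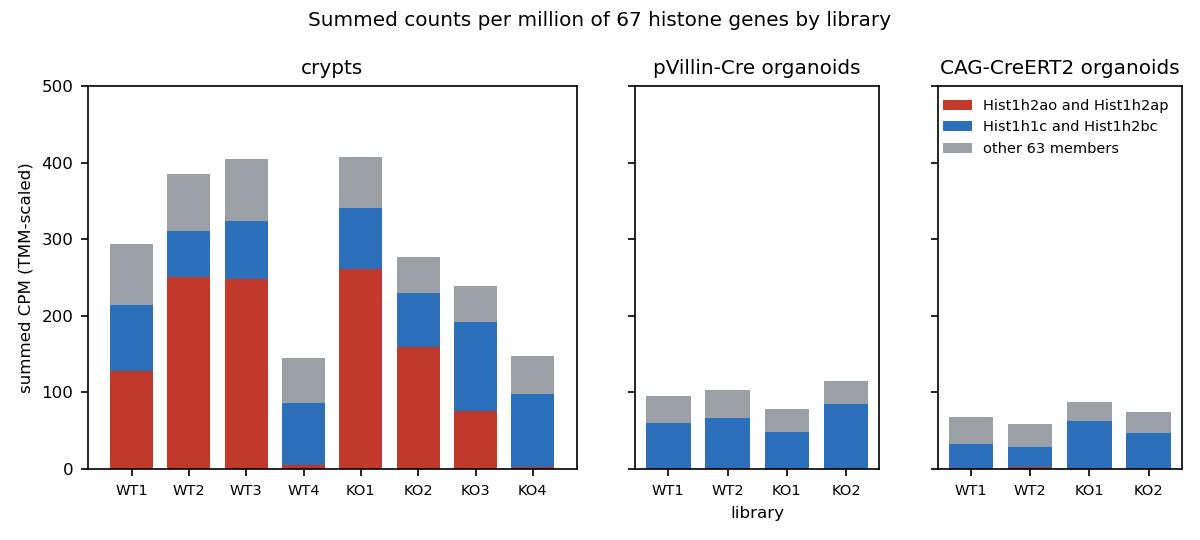
Summed level of the 67 histone genes in each of the 16 libraries, in CPM, divided into the Hist1h2ao and Hist1h2ap pair, Hist1h1c with Hist1h2bc, and the other 63 genes. The pair makes up 31.7 to 65.3% of the histone counts in replicates 1 to 3 of the crypts, and 2.18 and 3.89% in replicate 4.

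For KOIEC against WT crypts, no histone gene was called by the main edgeR test, and most had lower levels in KOIEC by an amount that did not pass it. Of the 67 genes, 27 passed the low-count filter, and the 40 others had at most 25 counts in any library. The edgeR quasi-likelihood test with Benjamini-Hochberg adjustment called 0 of 27, as did DESeq2, while it called 6.96% of the 13427 genes tested. With a term for replicate 4, a setting chosen after seeing the data, 1 of 27 was called, Hist1h2ac, against 1980 of the 13427 genes. At an unadjusted p under 0.05 there were 6 of 27 histone genes (22.2%) against 31.9% of all genes. The log2 fold change was below 0 in 24 of 27 (88.9%), against 51.1% of all genes, and its median was -0.39 against -0.01.

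By histone type, the linker histone genes had a median log2 fold change of -0.01 (2 of 3 tested below 0). The H2A genes stood at -0.79 (6 of 6), the H2B genes at -0.46 (7 of 8), the H3 genes at -0.58 (4 of 4) and the H4 genes at -0.42 (5 of 6). By transcript end, the median was -0.64 for the 10 tested genes ending soon after the stem-loop letters, all of them below 0. It was -0.39 for the 13 that continue (12 below 0) and 0.06 for the 4 without the letters (2 below 0). These medians are descriptions of genes that share libraries and in part reads, and at least 1 gene, Hist1h3i, passed the filter only through the group where it was high. Others met it mostly through WT, such as Hist1h2ag, with 23, 10, 44 and 17 counts in WT and 12, 7, 1 and 7 in KOIEC.

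Hist1h1c, which encodes the linker histone H1.2, measured 28.5, 16.9, 23.7 and 24.8 CPM in WT crypts and 15, 17.7, 38.8 and 29.6 CPM in KOIEC crypts. The KOIEC libraries held both the lowest and the highest value, and the log2 fold change was 0.11 (SE 0.29, adjusted p = 0.824). Hist1h1b, encoding H1.5, was too low for the test, with 37 counts over the WT and 33 over the KOIEC crypts.

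Of the H2A genes, Hist1h2ao had a log2 fold change of -0.31 (SE 1.08, adjusted p = 0.865) and Hist1h2ap one of -0.65 (SE 1.15, adjusted p = 0.721). These errors were the spread between libraries described above, and a change of this size was not detectable in either gene. Without WT replicates 2 and 3 the value of Hist1h2ao turned to 1.01. Hist1h2ac measured 8.60, 6.88, 6.00 and 2.33 CPM in WT and 4.65, 2.98, 2.55 and 1.01 CPM in KOIEC. Its log2 fold change was -1.09 (SE 0.47, adjusted p = 0.148, edgeR), and the groups overlapped.

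Hist1h2bc, an H2B gene annotated with 2 exons, was the leading one outside the pair. It measured 58.2, 42.6, 51.7 and 55.5 CPM in WT and 63.7, 53.0, 77.4 and 64.9 CPM in KOIEC. One KOIEC library lay within the WT range and the other 3 lay above it, with a log2 fold change of 0.32 (SE 0.14, adjusted p = 0.146). Hist2h2be, an H2B variant gene best known from olfactory neurons, overlapped between the groups, with 9.13, 9.33, 11.1 and 9.81 CPM in WT and 10.1, 7.94, 7.0 and 9.28 CPM in KOIEC (log2 fold change -0.20, SE 0.16, adjusted p = 0.409).

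Among the H3 genes, Hist1h3g and Hist1h3c had low counts and log2 fold changes of -0.32 (SE 0.32, adjusted p = 0.516) and -0.10 (SE 0.28, adjusted p = 0.831). Hist1h3i, another H3 gene, chosen here after its values were seen, had the smallest adjusted p of the 27. It measured 1.07, 1.04, 0.959 and 1.05 CPM in WT and 0.317, 0, 0.530 and 0.368 CPM in KOIEC. It passed the low-count filter only through the WT group, with 11 to 13 counts a library there and at most 5 in KOIEC, so a lower level in KOIEC was in part a condition of its being tested. All KOIEC libraries were below all WT libraries, on 48 and 12 counts in total, with a log2 fold change of -1.80 (SE 0.57, adjusted p = 0.0706).

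Only Hist1h3i and the H2B gene Hist1h2bj were without overlap and lower in KOIEC, 2 of 27 (7.41%) against 8.79% of all genes. Hist1h4i, the most abundant H4 gene, measured 9.04, 6.88, 8.96 and 8.44 CPM in WT and 6.66, 5.42, 4.56 and 7.26 CPM in KOIEC. One KOIEC value lay above the lowest WT value, and the log2 fold change was -0.48 (SE 0.19, adjusted p = 0.120). Hist1h4k, also an H4 gene, had one of 0.51 (SE 0.29, adjusted p = 0.259). Over 10 genes, the 2 of each type with the highest CPM per kb averaged over the WT libraries of all experiments, the lowest p of exact two-sided permutation tests in crypts was 0.0571, for Hist1h4i and before adjustment. The smallest possible p, 0.0286, was reached by the non-overlapping Hist1h3i and Hist1h2bj, which are outside these 10. Groups without overlap give this p by construction, and Hist1h3i passed the filter only through WT, so no conclusion is drawn from it.

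The direction was also computed within libraries alike in mitochondrial rRNA. Among the low libraries, WT replicate 1 and KOIEC replicates 1 to 3, 20 of 27 genes were lower in KOIEC with a median log2 difference of -0.38. Between the 2 libraries of replicate 4 alone, 17 of 27 were lower with a median of -0.24. Each of these comparisons has 1 WT library, whose own deviation moves all genes at once, so they are descriptions only. WT replicates 2 and 3 had no KOIEC library of their kind, and without them 18 of 27 were lower with a median of -0.20, against 0.01 over all genes. Without replicate 4 of both genotypes, 23 of 27 were lower with a median of -0.47, against -0.01 over all genes, and 0 were called. For the 11 genes with at least 10 counts in every library, a filter that also removes genes low in 1 group or in replicate 4, the median was -0.10, with 9 of 11 below 0. Without KOIEC replicate 1 the median over the 27 genes was -0.70.

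**Figure D4:**
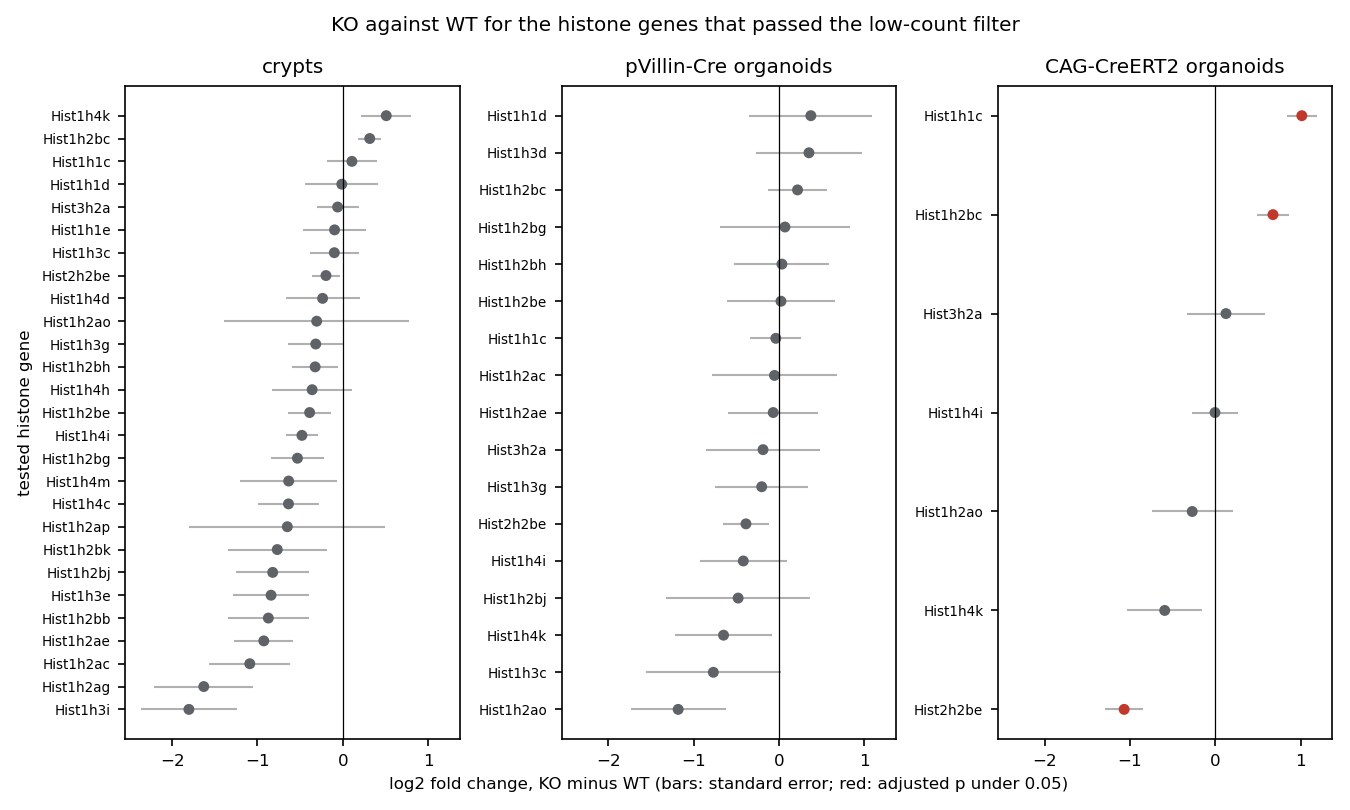
Log2 fold change, KO minus WT, of each tested histone gene with its standard error in crypts (27 genes), villin organoids (17) and CAG organoids (7), with called genes in red. Most crypt genes lie to the left of 0 without passing the test, and the called genes are the 3 in CAG organoids.

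In villin organoids no histone gene differed between KOIEC and WT by the test. There 17 genes were tested, and 0 had an adjusted p under 0.05 by edgeR or DESeq2. By edgeR 0.00717% of the 13938 genes tested passed, which is Cul4b alone. At an unadjusted p under 0.05 there were 0 of 17, against 4.66% of all genes. The log2 fold change was below 0 in 11 of 17 (64.7%), against 51.2% of all genes, and the median was -0.07 against -0.01. Single libraries set that median, which was 0.19 without KOIEC replicate 1 and -0.32 without KOIEC replicate 2.

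Hist1h1c measured 28.7 and 33.1 CPM in WT and 22.7 and 37.6 CPM in KOIEC, and Hist1h2bc measured 29.5 and 32.2 CPM in WT and 24.8 and 47.0 CPM in KOIEC. In both genes the 2 KOIEC libraries lay on either side of the WT libraries. The groups did not overlap, with KOIEC lower, in 2 of 17 genes (11.8%) against 19.4% of all genes. These were Hist2h2be, at 10.8 and 12.2 CPM in WT and 7.77 and 9.79 CPM in KOIEC (log2 fold change -0.39, SE 0.27, adjusted p = 0.856), and Hist1h2ao, at 1.90 and 1.39 CPM in WT and 0.964 and 0.473 CPM in KOIEC (-1.18, SE 0.55, adjusted p = 0.856). Hist1h4i showed the second KOIEC library apart from the rest, at 2.77 CPM against 6.28, 6.97 and 7.11 CPM. In the same library the summed level of 31 S-phase genes was 1349 CPM, against 3410 to 3675 CPM in the other 3, and its part in the histone values was not tested.

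In CAG organoids 3 of the 7 tested histone genes changed, Hist1h1c and Hist1h2bc being higher and Hist2h2be lower in KOCAG. This is 42.9% of the tested histone genes against 31.5% of the 13598 genes tested, a background in which calls were common. Higher in KOCAG were 2 of 7 against 18.1% of all genes, and lower was 1 of 7 against 13.4%. With a fold of at least 2 in addition there were 2 of 7, Hist1h1c and Hist2h2be, against 8.6% of all genes. A log2 fold change below 0 was found in 4 of 7 against 49.9%.

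Hist1h1c measured 16.7 and 14.4 CPM in WT and 36.7 and 26.8 CPM in KOCAG, both KOCAG libraries being well above both WT libraries. Its log2 fold change was 1.01 (SE 0.18, adjusted p = 0.00191, edgeR). Hist1h2bc measured 14.5 and 12.8 CPM in WT and 25.4 and 18.7 CPM in KOCAG, with the same order of libraries and a log2 fold change of 0.68 (SE 0.18, adjusted p = 0.0188). In both genes KOCAG replicate 1 was the higher of the KO libraries.

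Hist2h2be moved in the opposite direction. It measured 12.3 and 9.98 CPM in WT and 4.87 and 5.67 CPM in KOCAG, again without overlap, with a log2 fold change of -1.07 (SE 0.22, adjusted p = 0.00542). Among the genes that did not pass the test, Hist1h4i measured 5.78 and 4.66 CPM in WT and 5.84 and 4.71 CPM in KOCAG, with almost the same values in both groups (log2 fold change -0.0031, SE 0.27, adjusted p = 0.995). Hist1h4k was at 1.57 and 1.55 CPM in WT and 1.25 and 0.865 CPM in KOCAG (-0.59, SE 0.44, adjusted p = 0.334), and Hist1h2ao at 1.08 and 2.07 CPM in WT and 0.973 and 1.54 CPM in KOCAG (-0.27, SE 0.48, adjusted p = 0.697). Groups without overlap were found in 2 of 7 genes with KOCAG lower, Hist2h2be and Hist1h4k, against 34.2% of all genes, and in 2 of 7 with KOCAG higher against 35.5%. No H3 gene was tested in this experiment.

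The call of Hist1h2bc ended without KOCAG replicate 1 (adjusted p = 0.0866) and in a fit of all 16 libraries (0.199), its alternatives ranging from 0.000925 to 0.199. That of Hist1h1c ended in the fit of all 16 libraries (0.178), where the spread is shared with the crypts.

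**Figure D5:**
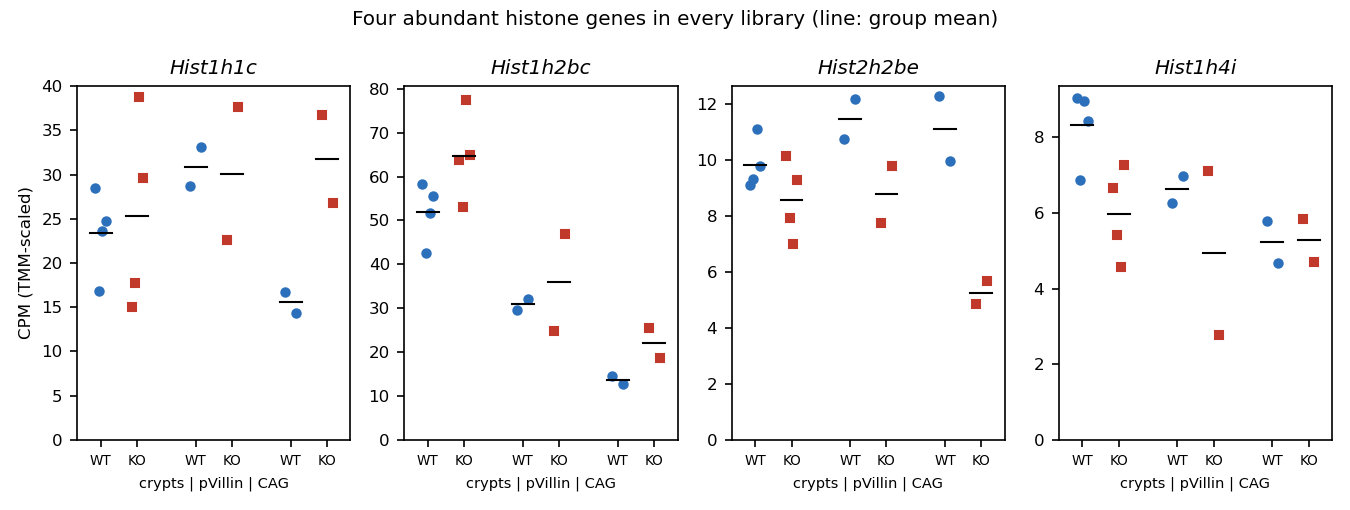
Level in every library, in CPM, of Hist1h1c, Hist1h2bc, Hist2h2be and Hist1h4i in the 3 experiments, WT (blue circles) beside KO (red squares), with lines at the group means. Hist1h1c and Hist1h2bc are higher and Hist2h2be is lower in both KOCAG libraries than in both WT libraries, while Hist1h4i overlaps there.

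Whether the effect of the deletion differed between experiments was tested in 1 fit of all 16 libraries with 15585 genes, 32 of them histone genes. No histone gene passed the adjusted threshold in any of the 3 contrasts. The background was 0.372% of genes for crypts minus CAG organoids, 0.00642% for crypts minus villin organoids and 0.385% for villin minus CAG organoids. At an unadjusted p under 0.05 there were 2, 1 and 2 histone genes, against 14.4%, 6.96% and 10.9% of all genes. Hist2h2be was among them in both contrasts with CAG organoids. Its log2 fold change in crypts exceeded that in CAG organoids by 0.89 (SE 0.28, adjusted p = 0.168), and its change in villin organoids did so by 0.71 (SE 0.31, adjusted p = 0.442). For Hist1h1c the crypt effect minus the CAG effect was -0.91 (SE 0.49, adjusted p = 0.421). The calls in CAG organoids were thus not shown to be particular to that experiment.

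The genes that make and process histone mRNA were described from a list of 23, of which 22 were in the tables. Slbp encodes the stem-loop binding protein, Npat the activator of histone gene transcription, and Casp8ap2 a component of the histone locus body. In crypts, 0 of 22 were called, and Slbp, Npat and Casp8ap2 had log2 fold changes of -0.15 (SE 0.12, adjusted p = 0.384), -0.01 (SE 0.20, adjusted p = 0.986) and 0.13 (SE 0.15, adjusted p = 0.555). In villin organoids 0 of 22 were called. In CAG organoids 1 rose and 4 fell of 22, against 18.1% of all genes called higher and 13.4% called lower. Ncbp1, a subunit of the nuclear cap-binding complex, rose by 0.25 on the log2 scale (adjusted p = 0.0432). Npat fell by 0.41 (adjusted p = 0.0318), as did Lsm11, a subunit of the U7 snRNP that cuts histone pre-mRNA, by 0.45 (adjusted p = 0.0264), and the other 2 were the splicing protein gene Snrpf (-0.46, adjusted p = 0.00860) and the cleavage factor gene Cpsf3 (-0.27, adjusted p = 0.0359). Slbp did not pass the test there, with a log2 fold change of -0.27 (adjusted p = 0.0600).

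Among 18 genes of histone mRNA decay, 2 rose and 1 fell in crypts, none was called in villin organoids and 2 fell in CAG organoids. The background of calls in crypts was 4.3% of all genes higher and 2.66% lower, and in CAG organoids 13.4% lower. The crypt genes that rose were the uridylyltransferase gene Zcchc6 (log2 fold change 0.67) and the poly(A) polymerase gene Papd5 (0.59), and the one that fell was Lsm5 (-0.76), with adjusted p of 0.0413, 0.0475 and 0.0413. None of these 3 calls was stable, since each was lost without WT replicate 1, 2 or 3 or KOIEC replicate 2 or 3, and that of Papd5 also without KOIEC replicate 4. Leaving out 1 crypt library moved the number of all genes called between 2 and 2534. Those that fell in CAG organoids were Xrn1, the 5′ to 3′ exonuclease (-0.39), and Smg1, a kinase of nonsense-mediated decay (-0.29). Among the replication-independent histone genes, which are not confined to S phase, H2afx fell in crypts (-0.73, adjusted p = 0.0456), 1 of 9 tested. This call was lost without any 1 of WT replicates 1 to 3 or KOIEC replicates 2 to 4 and with a replicate block. All 9 were below 0 there, against 51.1% of all genes, with a median of -0.37. The 12 listed genes summed to 2668, 2603, 2781 and 2575 CPM in WT and 2123, 1856, 1935 and 2189 CPM in KOIEC crypts. In villin organoids the sums were 2478 and 2456 CPM in WT and 2160 and 2127 CPM in KOIEC, with 0 called. In CAG organoids they were 2625 and 2612 CPM in WT and 2084 and 2285 CPM in KOCAG. The groups did not overlap in any experiment. Of single genes tested, 8.79% in crypts, 19.4% in villin organoids and 34.2% in CAG organoids were also lower in KO without overlap. In CAG organoids 4 of 11 fell, against 13.4% of all genes, namely H1f0 (-0.54), H2afv (-0.49), Cenpa (-0.63) and H2afx (-0.51). H1f0 encodes a linker histone and so moved in the opposite direction to Hist1h1c. Of 23 histone chaperone genes, 0 were called in crypts and villin organoids, and 3 fell in CAG organoids, near the 13.4% of all genes called lower there.

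S-phase genes are given beside the histone genes because both follow DNA replication. In crypts 3 of 31 fell, namely Tk1, Gins1 and Gins2, against 2.66% of all genes, and 29 of 31 were below 0, against 51.1%, with a median log2 fold change of -0.30. All 3 calls were lost without any 1 of WT replicates 1 to 3 or KOIEC replicates 2 and 3 and with a replicate block, and that of Gins2 also without KOIEC replicate 4. In CAG organoids 10 of 31 fell and 1 rose, against 13.4 and 18.1% of all genes, with a median of -0.22. In villin organoids 0 were called and the median was -0.54, with sums of 3410 and 3455 CPM in WT and 3675 and 1349 CPM in KOIEC, so that KOIEC replicate 2 alone was lower. Their part in the histone values was not tested.

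RNAs that mostly lack the usual long poly(A) tail, among them the mitochondrial rRNAs, which carry short ones, were read from a list of 20, of which 18 were in the tables, 7 were tested in each experiment. In each experiment 8 were at 0 in every library, not all of them the same genes, with Rmrp, Rn7s1, Rn7s6, Rny1, Snora73a and Snora73b at 0 in all 3. With mt-Rnr2 the most abundant, they summed to 2392 and 2365 CPM in WT and 3473 and 3139 CPM in KOCAG organoids, where 4 of 7 rose, against 18.1% of all genes, with a median log2 fold change of 0.40. Among those that rose were Neat1, mt-Rnr1 and Gm26917. Neat1 measured 416 and 444 CPM in WT and 943 and 744 CPM in KOCAG. This was a larger rise than that of mt-Rnr2, at 623 and 717 CPM in WT and 811 and 936 CPM in KOCAG. In crypts 0 of 7 were called with a median of -0.78, and in villin organoids 0 of 7 with one of -0.02. Their part in the histone values was not tested.

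The cell make-up of the libraries was read from marker lists. The 8 epithelial markers summed to between 10670 and 12819 CPM in the crypt libraries, Krt8 being the most abundant and none at 0, so the epithelial label held. Vil1 was the 1 of the 8 called in crypts, higher in KOIEC (log2 fold change 1.00, adjusted p = 0.0499, edgeR), a call lost without any 1 of WT replicates 1 to 3 or KOIEC replicates 2 to 4. In villin organoids they summed to 9534 and 7747 CPM in WT and 11436 and 11303 CPM in KOIEC with 0 of 8 called. In CAG organoids they summed to 7683 and 7374 CPM in WT and 10733 and 9623 CPM in KOCAG, where 4 of 8 rose and 1 fell, against 18.1 and 13.4% of all genes. The 10 enterocyte markers, led by Apoa1 and none at 0, summed to 6715, 3478, 2351 and 10538 CPM in WT crypts and 9781, 15329, 19927 and 19234 CPM in KOIEC crypts. All 10 had a log2 fold change above 0 with a median of 1.57, and 0 were called. Beside them, Hist1h1c had a log2 fold change of 0.11 (SE 0.29) and Hist1h2bc one of 0.32 (SE 0.14), neither called. Hist1h1c was lowest of all crypts in KOIEC replicate 1, at 15 CPM, where the enterocyte sum was 9781 CPM, the lowest among the KOIEC crypts. It was highest in KOIEC replicate 3, at 38.8 CPM, where the enterocyte sum was also the highest, at 19927 CPM. Whether Hist1h1c followed the enterocyte markers was not tested. In CAG organoids the enterocyte markers summed to 4639 and 4993 CPM in WT and 13615 and 10683 CPM in KOCAG, and 9 of 10 rose with a median of 1.40, beside the rise of Hist1h1c and Hist1h2bc. In villin organoids 0 of 10 were called, at 5763 and 9922 CPM in WT and 4162 and 12606 CPM in KOIEC, in the same order of libraries as Hist1h1c and Hist1h2bc.

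Lymphocyte markers, 12 genes led by Gzma, summed to 82.5, 68.9, 35.3 and 130 CPM in WT crypts and 59.6, 78.4, 377 and 198 CPM in KOIEC crypts, with a median log2 fold change of 1.2 over 10 tested and 0 called. None of the 12 was at 0 in all crypt libraries, whereas 5 were in villin and 6 in CAG organoids, where the sums were at most 1.25 CPM. Mesenchyme markers, 10 genes led by Vim, summed to 14.7, 16.3, 18.7 and 17.0 CPM in WT crypts and 7.61, 10.1, 10.3 and 11.4 CPM in KOIEC crypts. All KOIEC crypts were below all WT crypts, with 4 of 4 tested genes below 0, a median log2 fold change of -0.78, 0 called and none of the 10 at 0 throughout. In villin organoids they summed to 9.16 and 10.2 CPM in WT and 8.74 and 18.03 CPM in KOIEC, with Col1a2 and Dcn at 0. In CAG organoids they summed to 13.5 and 17.2 CPM in WT and 25.6 and 22.9 CPM in KOCAG, with Lum, Acta2 and Cdh5 at 0, and Vim, the 1 gene tested, rose by 0.58 on the log2 scale (adjusted p = 0.0264, edgeR). The part of these cell types in the histone levels was not tested.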

How the data were processed

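RNA-seq libraries of 16 samples were analysed from 3 tables of raw read counts per gene that the authors deposited. Per the submitters' processing notes, reads were aligned with HISAT2 2.0.5 and counted with featureCounts 1.5.0-p3. Genome build, strand setting, treatment of reads that fit several genes and RNA selection are not given in the sources used here. Positions of all 67 histone genes matched GENCODE M21 (GRCm38). Samples were grouped by the labels. The main test was edgeR's (4.0.16, R 4.3.3) quasi-likelihood test per experiment, with its low-count filter and TMM scaling, adjusted by Benjamini-Hochberg over all genes tested, at 0.05. DESeq2 1.42.0 and other filters, scalings and left-out libraries were alternatives. Log2 CPM used a prior count of 2. The script was tested on simulated data. Named genes were Cul4b, Slbp, Npat, Casp8ap2, called histone and list genes and the 2 most abundant genes of each histone type; others were chosen after their values were seen. Members and lists were chosen with earlier results of these data known. p-values measure the spread between these samples, and intervals and floors cover counting error only.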

Additional observations from a re-analysis of the deposited data

Results flagged for a closer look

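Hist1h1b, a linker histone gene, stood apart in KOIEC crypt replicate 4, at 1.29 CPM against 0.529 to 0.636 CPM in the other 3 KOIEC crypts. The gap to its nearest neighbour was 0.858 of the group's range, on 24 groups of 4 libraries examined, of which chance alone flags about 1 in 20. The gene had 33 counts over the 4 KOIEC crypts, and the cause was not tested.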

How the results depend on the processing

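In crypts the number of histone genes called was 0 in most settings, 1 with a term for replicate 4 (Hist1h2ac) and 0 to 2 with 1 library left out (without KOIEC replicate 1, Hist1h2ae and Hist1h2ag). The median log2 fold change was -0.10 with at least 10 counts in every library, which tests 11 genes, and -0.70 to -0.25 with 1 library left out. With no filter it was -0.46 against -0.03 over all genes, with 50 of 60 histone genes below 0. In villin organoids the number was 0 to 1 with 1 library left out (Hist1h2bc without KOIEC replicate 1) and the median was -0.28 with no filter and -0.32 to 0.19 with 1 left out, and the log2 ratio of the sums was -0.34 to 0.21. In CAG organoids the number was 1 in the fit of all 16 libraries, the median was 0.33 with at least 10 counts in every library, which tests 4 genes, and -0.25 to 0.15 with 1 left out, and the log2 ratio of the sums was 0.060 without Hist1h1c. The count of all genes called ranged from 1 to 2534 in crypts. With DESeq2's own test it was 2490, against 934.

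Without WT replicates 2 and 3, crypt log2 fold changes changed sign for Hist1h1c (-0.076), Hist1h2ao (1.01), Hist1h2ap (0.10), Hist1h3g (0.011), Hist1h3c (0.089) and Npat (0.30). Npat also stood at 0.0074 with DESeq2's size factors and at 0.0074 in its Wald test. With 1 crypt library left out, the ranges that crossed 0 were -0.14 to 0.12 for Npat, -0.16 to 0.29 for Hist1h1c, -0.95 to 0.10 for Hist1h2ao and -0.22 to 0.039 for Hist1h3c. In villin organoids they were -1.01 to 0.052 for Slbp, -0.67 to 0.18 for Casp8ap2, -0.45 to 0.28 for Hist1h1c, -0.32 to 0.61 for Hist1h2bc, -0.54 to 0.25 for Hist1h3g and -1.26 to 0.10 for Hist1h4i. In CAG organoids the range was -0.68 to 0.25 for Hist1h2ao and -0.17 to 0.16 for Hist1h4i, which stood at 0.00058 in the Wald test. The causes were not tested. In the organoids a left-out library leaves 1 in its group, assumed to vary like the others.

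The correlations of same-numbered deviations were -0.04, 0.19, -0.40 and 0.43 in crypts, 0.34 in villin and 0.07 in CAG organoids, so the numbers as a whole were not taken as pairs, although the 2 crypt libraries of replicate 4 shared a profile. With a replicate block 4, 1 and 4932 of all genes and 0, 0 and 3 histone genes were called, and Hist1h4i stood at 0.0142 in CAG organoids. The settings without replicate 4, with a term for it, and without Hist1h2ao and Hist1h2ap were chosen after seeing the data. Genes of a few counts set the depth limit: 40, 50 and 60 of the 67 genes could not be tested in the 3 experiments.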
